A study of Mus musculus with 27 samples.

Results

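The transcription factor genes Pou5f1, Nanog, Sox2 and Klf4 are described here by the main mRNA of each, 4 transcripts of the 137271 listed in each RNA library. They were taken by transcript identifier: ENSMUST00000025271.16 for Pou5f1 (1362 nt), ENSMUST00000012540.4 for Nanog (2211 nt), ENSMUST00000099151.5 for Sox2 (2057 nt) and ENSMUST00000107619.2 for Klf4 (3029 nt). All 4 passed the filter on low values, a mean of 1 or more CPM over the 4 libraries (CPM, reads per 1000000 reads of the library), as did 32199 transcripts in all. Other transcripts of these genes were not analysed here.

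The libraries hold polyadenylated RNA of mouse embryonic stem cells of the KH2 line, a line built to carry doxycycline-inducible transgenes, with the genotype KH2:13 Flag-BAP-H3 tags, so that every library comes from cells with tagged histone H3. The cells grew with LIF and inhibitors of MEK1/2 and GSK3, were arrested by a double thymidine block, and were collected 3 h or 6 h after release into S phase. At each time there was 1 untreated library and 1 library with 1 µM triptolide, a plant compound that targets XPB, the TFIIH subunit that opens promoter DNA, and so stops RNA polymerase II from starting new transcripts. The labels give neither the time at which the drug was added nor a purpose of their own for the RNA libraries; the series concerns where nucleosomes of active and repressed chromatin go during DNA replication. The other 23 of the 27 samples of the series are chromatin libraries and were not used here. With 1 library per condition there is no replicate check, no test is given, and each interval below covers counting error only.

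Pou5f1 encodes OCT4, a POU-domain factor that binds DNA side by side with SOX2, an HMG-box factor, at joint octamer and Sox elements. NANOG is a homeodomain protein, and KLF4 is a zinc finger factor downstream of LIF and STAT3 signalling. Together they occupy enhancers of the pluripotency network, their own genes included, and keep embryonic stem cells undifferentiated. Loss of OCT4 makes these cells differentiate, whereas NANOG can vary from cell to cell and be low for a time without loss of the state. Variation between cells was not measured in these bulk libraries.

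Because triptolide acts where transcription starts, the 250 bases upstream of each start site are shown (RefSeq, GRCm38.p6; coordinates from the reference table, since the RNA tables hold none). They lie at chr17:35505782-35506031 on the plus strand (Pou5f1), chr6:122707239-122707488 on the plus strand (Nanog), chr3:34649745-34649994 on the plus strand (Sox2) and chr4:55532476-55532725 on the minus strand (Klf4). The table has 2 starts for Pou5f1 and 2 for Nanog, of which the outermost is shown; which start the listed mRNA uses is not given in the sources used here. Capitals mark matches, on either strand, to the TATA box TATAAA, the GC box GGGCGG, the CCAAT box CCAAT, the octamer core ATGCAAA and a joint octamer and Sox element, taken as the octamer core in its other orientation (TTTGCAT), any base and then ACAATG, so that each joint match holds an octamer match.
Pou5f1: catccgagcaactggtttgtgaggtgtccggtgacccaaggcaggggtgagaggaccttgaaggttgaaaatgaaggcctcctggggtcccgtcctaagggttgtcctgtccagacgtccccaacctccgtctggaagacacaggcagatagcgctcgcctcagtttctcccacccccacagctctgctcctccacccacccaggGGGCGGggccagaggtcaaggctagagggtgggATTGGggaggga
Nanog: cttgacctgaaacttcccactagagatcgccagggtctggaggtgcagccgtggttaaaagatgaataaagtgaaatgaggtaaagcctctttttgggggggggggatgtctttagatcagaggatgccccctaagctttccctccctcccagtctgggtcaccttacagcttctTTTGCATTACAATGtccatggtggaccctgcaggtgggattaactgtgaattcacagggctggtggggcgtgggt
Sox2: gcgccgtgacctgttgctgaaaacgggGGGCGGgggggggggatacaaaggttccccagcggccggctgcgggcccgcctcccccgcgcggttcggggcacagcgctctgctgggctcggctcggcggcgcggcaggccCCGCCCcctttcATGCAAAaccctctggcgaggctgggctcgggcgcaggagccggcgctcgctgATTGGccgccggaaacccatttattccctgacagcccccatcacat
Klf4: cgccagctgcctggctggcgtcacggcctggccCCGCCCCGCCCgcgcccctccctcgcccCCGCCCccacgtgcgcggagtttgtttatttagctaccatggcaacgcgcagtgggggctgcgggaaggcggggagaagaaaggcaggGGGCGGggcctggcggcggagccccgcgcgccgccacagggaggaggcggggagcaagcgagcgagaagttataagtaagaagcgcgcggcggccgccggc

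None of the 4 windows held the TATA box letters, which 12.4% of 32851 windows of the same length hold. Only exact letters were searched for, so near matches, such as the tataag late in the Klf4 window, were not counted. The Nanog window held the joint element 75 to 62 bases upstream of the start, and no GC box. Of all windows, 2 held that element, both of Nanog; it was searched for with this gene in view, so the match is a description. The Sox2 window held 2 GC boxes, 1 CCAAT box and 1 octamer core, and the Pou5f1 window 1 GC box and 1 CCAAT box. GC boxes were present in 32.7% of all windows, CCAAT boxes in 33.8% and octamer cores in 4.12%. The Klf4 window held 4 GC boxes, of which 2 overlap by a base, and no other match. The windows also differed in base composition: 74% G or C with 32 CpG in Klf4, 72% with 27 in Sox2, 62% with 8 in Pou5f1 and 52% with 3 in Nanog, against medians of 52.4% and 6 over all windows. The windows of Nanog and Klf4 lie farthest apart in these counts. Any relation of the windows to the triptolide ratios given next was not tested.

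With triptolide, the Nanog, Sox2 and Klf4 mRNAs took a far smaller share of the reads at 3 h and a smaller one still at 6 h, whereas the share of Pou5f1 stayed close to that of the untreated cells. At 6 h Nanog was 18.0-fold lower in CPM, Sox2 12.3-fold and Klf4 6.81-fold, and Pou5f1 was 1.16-fold higher. The libraries held between 19145129 reads (6 h, with triptolide) and 27443889 reads (3 h, no drug). The smallest count behind any value of the 4 transcripts was 573 reads. These are shares within a library: no spike-in values were used, so a loss common to all mRNAs would not be seen. In bulk RNA, fewer cells that hold a transcript and less of it per cell cannot be told apart.

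**Figure D1:**
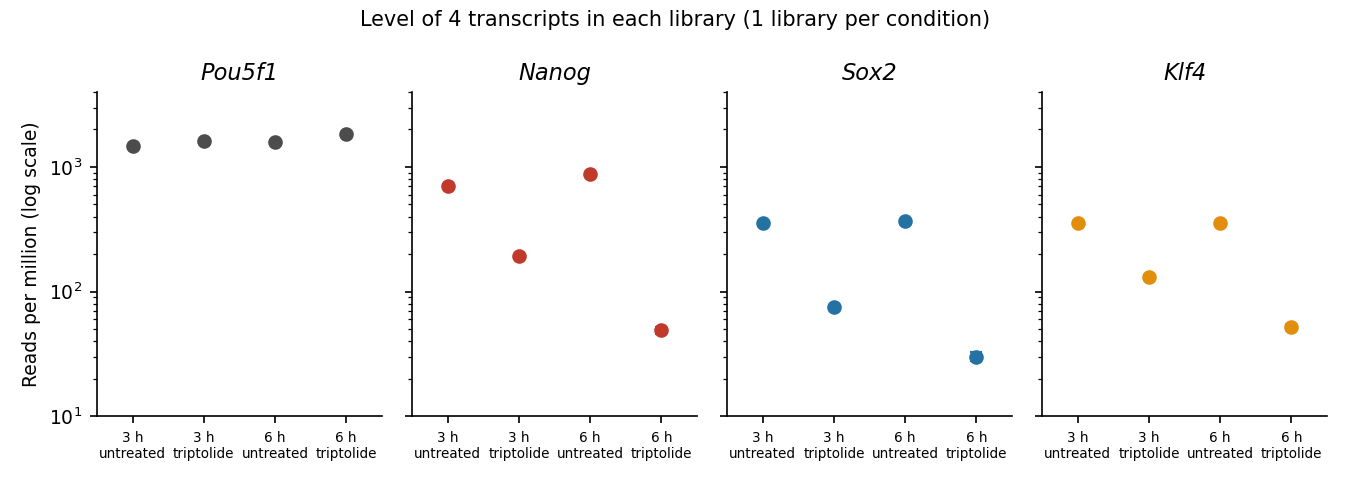
CPM (vertical axis, log scale) of the 4 transcripts in the 4 libraries (horizontal axis), 1 point per library, with exact Poisson 95% intervals that are no taller than the points or nearly so. Nanog, Sox2 and Klf4 are lower in each triptolide library than in either untreated library, and lowest at 6 h, whereas the 4 values of Pou5f1 lie between 1485 and 1841.

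Pou5f1 had 1485 CPM untreated and 1606 CPM with triptolide at 3 h, and 1583 CPM and 1841 CPM at 6 h. The treated library was thus the higher of the pair at each time, by less than the 2-fold size used here as the limit of a difference. Its log2 CPM ratio was 0.11 at 3 h (counting interval 0.09 to 0.13) and 0.22 at 6 h (0.20 to 0.24). The log2 ratios at 3 h and 6 h were 0.15 and 0.44 with TMM factors, and 0.16 and 0.45 with DESeq2 size factors. In TPM (reads per effective length, scaled to 1000000 per library) the log2 ratio was 0.02 at 3 h and, with the opposite sign, -0.07 at 6 h. The direction for Pou5f1 at 6 h therefore depends on the scaling. In TPM it had 1265 and 1286 at 3 h, and 1366 and 1298 at 6 h.

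Nanog had 703 CPM untreated and 191 CPM with triptolide at 3 h, and 884 CPM and 49.0 CPM at 6 h. The drug-treated level was 3.67-fold below the untreated one at 3 h, a log2 ratio of -1.88 with an interval of -1.92 to -1.83, and 18.0-fold below it at 6 h, a log2 ratio of -4.17 with an interval of -4.27 to -4.08. In TPM these were 3.91-fold and 22.1-fold. Nanog had the lowest 6 h ratio of the 1596 abundant transcripts, those averaging at least 100 CPM over the libraries, although the next one, at -4.17, lay within its counting interval. Of all 32199 tested transcripts, 281 had a lower 6 h ratio than Nanog.

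Sox2 had 352 CPM untreated and 74.9 CPM with triptolide at 3 h, and 368 CPM and 29.9 CPM at 6 h. The drug-treated level was 4.70-fold below the untreated one at 3 h, a log2 ratio of -2.23 with an interval of -2.30 to -2.16, and 12.3-fold below it at 6 h, a log2 ratio of -3.62 with an interval of -3.74 to -3.50. In TPM these were 5.00-fold and 15.1-fold. Of the 4 genes Sox2 thus had the lowest ratio at 3 h, and Nanog at 6 h. Sox2 has no introns and lies inside an intron of the noncoding gene Sox2ot; whether the counting used strand is not given in the sources used here.

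Klf4 had 352 CPM untreated and 131 CPM with triptolide at 3 h, and 353 CPM and 51.9 CPM at 6 h. The drug-treated level was 2.68-fold below the untreated one at 3 h, a log2 ratio of -1.42 with an interval of -1.48 to -1.37, and 6.81-fold below it at 6 h, a log2 ratio of -2.77 with an interval of -2.86 to -2.67. In TPM these were 2.85-fold and 8.35-fold. Klf4 had the smallest ratio in size of the 3 lower genes at both times.

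At 3 h, 3 of the 4 were at least 2-fold lower and 0 higher, where 7.96% of all tested transcripts were lower and 5.38% higher. The 4 had a median log2 ratio of -1.65 against -0.04 over all tested. At 6 h, again 3 of the 4 were lower and 0 higher, where 24.7% of all tested transcripts were lower and 10.7% higher, and the medians were -3.19 and -0.23. Ratios of scarce transcripts spread more widely, so the abundant ones are given too. Of these 1.25% passed the 2-fold limit downwards at 3 h and 10.9% at 6 h. The mean CPM that defines this class includes the treated libraries, so transcripts lost with the drug reach it less easily. Sox2 had 352 and 368 CPM untreated but 74.9 and 29.9 CPM with triptolide. How far this cut lowers these percents and shapes the ranks below was not tested. Of all transcripts past 2-fold in either direction at 6 h, the share of lower ones was 69.8% by library total, 58.2% with TMM factors, 57.4% with DESeq2 size factors and 81.9% in TPM.

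Among the 1596 abundant transcripts, 6 had a lower 3 h ratio than Nanog, 1 a lower one than Sox2 and 9 a lower one than Klf4. At 6 h these counts were 0, 3 and 10, and they include members of the set. Over all 32199 tested transcripts, in the order Nanog, Sox2 and Klf4, the counts were 571, 354 and 1164 at 3 h. At 6 h they were 281, 476 and 1149. For Pou5f1 1068 of the 1596 had a lower ratio at 3 h and 1042 at 6 h, a place in the upper middle of the distribution. Length is a further difference: Pou5f1 is the shortest of the 4, and the class of longer transcripts had the lower 6 h median. Within its own length class, 1000 to 2000 nt at a mean CPM of 10 or more, Pou5f1 had a 6 h ratio above 1590 of 2405 transcripts, with a class median of -0.01. In the class of 2000 to 4000 nt, with a median of -0.30, the 6 h ratio was lower than that of Nanog in 8 of 4056 transcripts, lower than that of Sox2 in 19 and lower than that of Klf4 in 83.

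**Figure D2:**
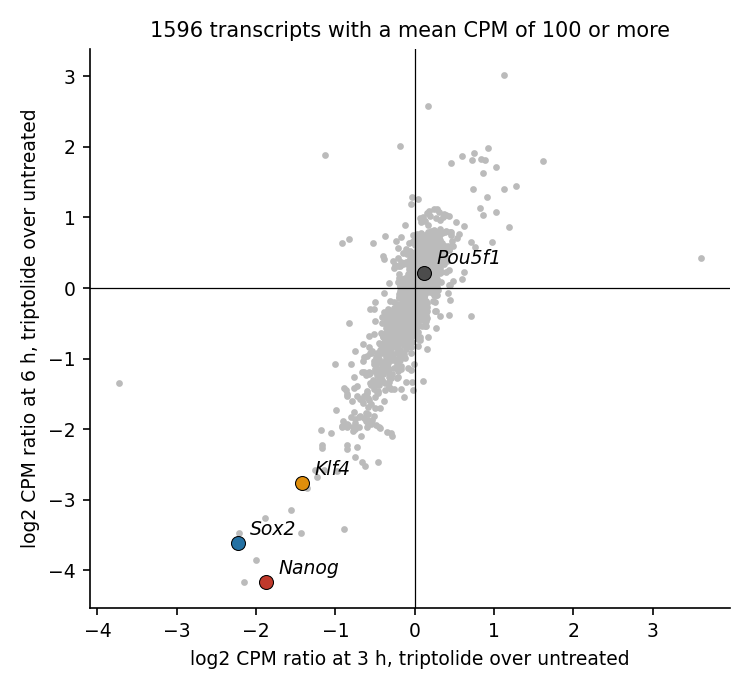
Log2 CPM ratio of triptolide over untreated at 3 h (horizontal axis) and at 6 h (vertical axis) for the 1596 abundant transcripts, averaging at least 100 CPM (grey points, 1 per transcript), with the 4 pluripotency transcripts coloured and named. Nanog, Sox2 and Klf4 lie at the lower left end of the cloud, and Pou5f1 at 0.11 and 0.22 lies inside its dense centre.

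**Figure D3:**
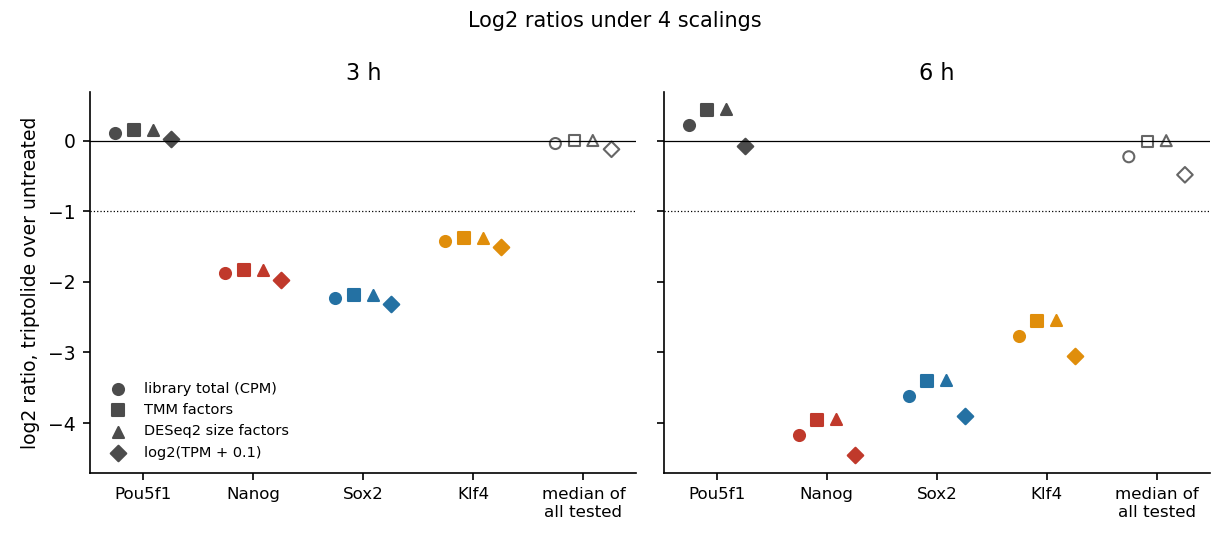
Log2 ratio of triptolide over untreated (vertical axis) for each gene at 3 h and 6 h, with 1 marker shape per scaling; open markers give the median of the 32199 tested transcripts and the dotted line marks 2-fold lower. Under all 4 scalings Nanog, Sox2 and Klf4 lie below that line at both times. Pou5f1 lies between -0.07 (TPM) and 0.45 (DESeq2 size factors), both at 6 h, where its sign changes in TPM.

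Ratios between 2 of the genes do not depend on how libraries are scaled, so they were compared for the 6 pairs. Relative to Nanog, Pou5f1 was 3.97-fold higher with triptolide than without at 3 h (log2 1.99, interval 1.94 to 2.04) and 21.0-fold higher at 6 h (log2 4.39, interval 4.29 to 4.49). Relative to Sox2 it was 5.08-fold higher at 3 h and 14.3-fold higher at 6 h, and relative to Klf4 2.90-fold and 7.92-fold higher. The Nanog to Sox2 ratio turned between the times, since its log2 change with triptolide was 0.35 at 3 h (interval 0.27 to 0.44) and -0.55 at 6 h (interval -0.71 to -0.40). The Sox2 to Klf4 ratio changed by a similar amount at both, -0.81 at 3 h (interval -0.90 to -0.72) and -0.85 at 6 h (interval -1.01 to -0.70). All 6 pairs had intervals without 0 at each time, and the same ratios taken from TPM differed by at most 0.0083.

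Per length, the untreated cells held the mRNAs in the order Pou5f1, Nanog, Sox2, Klf4 at both times. At 3 h their TPM values, in that order, were 1265, 359.7, 194 and 130.1. At 6 h they were 1366, 458, 206 and 132. Pou5f1 ranked 92nd at 3 h and 85th at 6 h among all transcripts of the library, and Klf4 ranked 810th and 831st. All 4 mRNAs thus lay well above the 3 reads that a count of 0 allows. The label of embryonic stem cells was not checked against other genes. With triptolide Klf4 stood above Sox2, at 45.6 against 38.8 TPM at 3 h and 15.9 against 13.6 TPM at 6 h. Counting intervals of neighbours in the order did not overlap, though at 6 h with triptolide those of Klf4 (14.9 to 16.9 TPM) and Sox2 (12.6 to 14.8 TPM) nearly met. Such intervals leave out the error of reads shared among transcripts, so the order of Klf4 and Sox2 there is not settled. With triptolide at 6 h Nanog stood at 20.7 TPM and ranked 3645th, and Sox2 ranked 5092nd.

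The make-up of the 4-factor mRNA pool moved accordingly. Pou5f1 made up 64.9% of the summed TPM of the 4 in untreated cells at 3 h and 87.9% with triptolide, and 63.2% and 96.3% at 6 h. Nanog made up 18.5% and 6.29% at 3 h, and 21.2% and 1.54% at 6 h. Sox2 and Klf4 made up 9.96% and 6.67% in untreated cells at 3 h, and 1.01% and 1.18% with triptolide at 6 h. A TPM share of this kind has no interval here, as reads shared among transcripts add an error that the counts do not show.

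**Figure D4:**
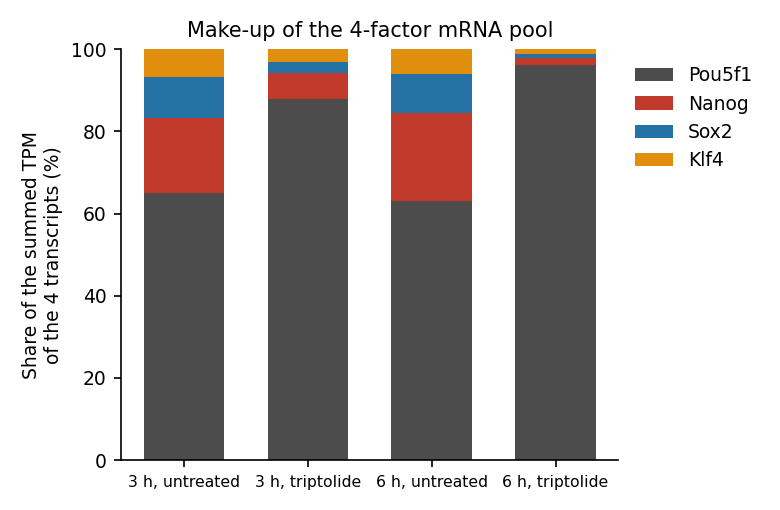
Share of each gene in the summed TPM of the 4 transcripts (vertical axis, percent) in each library (horizontal axis, 1 stacked bar per library, starting at 0). Pou5f1 takes 64.9% and 63.2% of the pool in the untreated libraries, and 87.9% and 96.3% in the triptolide libraries at 3 h and 6 h.

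Without the drug the 4 mRNAs lay close together at 3 h and 6 h. None was 2-fold lower or higher, 0 of 4 in each direction, where 3.85% of all tested transcripts were lower and 4.31% higher, as were 0.251% of the abundant ones downwards. Nanog had the largest ratio, 1.26-fold higher at 6 h (log2 ratio 0.33, interval 0.30 to 0.36), above 1519 of the 1596 abundant transcripts. The log2 ratios were 0.09 for Pou5f1 (interval 0.07 to 0.11), 0.06 for Sox2 (interval 0.02 to 0.11) and 0.01 for Klf4 (interval -0.04 to 0.05). The Nanog to Pou5f1 ratio was thus 1.18-fold higher at 6 h, a size that a single pair of libraries cannot set against replicate error.

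Between the treated libraries, 3 of the 4 were past the 2-fold limit downwards at 6 h against 3 h and 0 upwards. Of all tested transcripts 17.1% were past it downwards and 7.73% upwards, and of the abundant ones 4.76% downwards. Nanog was 3.91-fold lower (log2 ratio -1.97, interval -2.07 to -1.86), Klf4 2.53-fold (log2 ratio -1.34, interval -1.44 to -1.24) and Sox2 2.50-fold (log2 ratio -1.32, interval -1.46 to -1.19). The interval of the Sox2 to Klf4 ratio between these libraries included 0 (log2 0.01, interval -0.16 to 0.18), and it was the only 1 of the 6 pairs for which it did. Pou5f1 was 1.15-fold higher in CPM (log2 ratio 0.20, interval 0.18 to 0.22) and had a log2 ratio of 0.01 in TPM.

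Set against the untreated libraries of the same time, the triptolide ratio of Nanog was lower at 6 h than at 3 h by a further log2 difference of -2.30 (interval -2.40 to -2.19). For Sox2 this difference was -1.39 (interval -1.53 to -1.25), and for Klf4 -1.34 (interval -1.45 to -1.23). For Pou5f1 its sign depends on the scaling: 0.11 in CPM (interval 0.08 to 0.13), 0.28 with TMM factors, 0.29 with DESeq2 size factors and -0.0975 on the log2(TPM + 0.1) scale. The median over the 1596 abundant transcripts was -0.03, and 2 of them had a lower difference than Nanog. Compared with its own ratio at 3 h, the further difference was larger in size for Nanog (-2.30 after -1.88), smaller for Sox2 (-1.39 after -2.23) and, in CPM, close for Klf4 (-1.34 after -1.42).

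Few transcripts lay near Nanog and Sox2 in profile, and many lay near Pou5f1. The profiles were not scaled for size, so a transcript with large ratios has few neighbours and a nearly flat one many. The counts of neighbours thus largely restate the size of the ratios given above. Likeness was measured as the root mean square difference of centred log2 CPM over the 4 libraries, among 10925 others that averaged at least 10 CPM. Within 0.25 of Nanog lay 9 transcripts, within 0.25 of Sox2 13, within 0.25 of Klf4 133 and within 0.25 of Pou5f1 4608. Nanog and Sox2 differed from each other by 0.251, and Nanog and Pou5f1 by 1.77. The nearest transcript to Pou5f1 was ENSMUST00000021085.10 (2230 nt) at 0.0021, with log2 ratios of 0.12 at 3 h and 0.22 at 6 h. The nearest to Klf4 was ENSMUST00000091295.13 (2140 nt) at 0.035, with log2 ratios of -1.36 and -2.83. With 4 libraries such a measure describes a shared pattern and no more.

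The treated libraries also differed in ways that are not particular to these genes. The treated 6 h library was the shallowest, and the mean fragment length implied by the effective lengths was 85.9 nt with triptolide against 83.8 nt without at 3 h, and 88.7 nt against 84.8 nt at 6 h. The part of either in the ratios was not tested. Of the 16 estimates for the 4 transcripts, 1 was a whole number, Sox2 with triptolide at 6 h (573 reads), so the other estimates hold reads divided with other transcripts.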

How the data were processed

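Per the file headers, the deposited tables are Salmon output per transcript, with TPM and estimated counts (NumReads) beside length and effective length. Salmon's version, annotation and strand setting were not given in the sources used here. The submitters' processing notes list FastQC 0.11.4, Bowtie 1.0.0, SAMtools 1.0.6 and the builds mm10 and dm3 with no role. The deposited TPM values are the authors' and divide by effective length. The estimated counts were rounded and expressed as CPM of the library total, with 0 set to 3 reads in ratios of other transcripts. A size of 2-fold was the limit, without p-values. Intervals of 95% were exact Poisson (levels), Clopper-Pearson (ratios), conditional odds ratio (pairs) and a normal approximation (differences of ratios), with scipy 1.17.1, and cover counting error only, since PCR copies carry no molecular identifiers and reads are not independent. The procedure was tested on simulated counts. The reference tables of gene names matched 0 of 137271 identifiers, so the lists of other pluripotency and lineage genes were not run; the 4 identifiers and their genes were given. Other transcripts were named by likeness of profile, at most 2, those with the smallest difference. Alternatives were TMM factors (edgeR 4.0.16), DESeq2 1.42.0 size factors, log2(TPM + 0.1), log2(TPM + 1), unrounded counts, limits of 1.5-fold and 4-fold, no filter, and a mean CPM of 5 or more. Members, lists and motifs were chosen with earlier results of these data known.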

Additional observations from a re-analysis of the deposited data

Results flagged for a closer look

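For 3 of the 4 genes the log2 CPM ratio of 6 h over 3 h had opposite signs without and with triptolide, 1 library standing behind each side, and the difference was not tested. Nanog was at 0.33 without and -1.97 with the drug, a difference of -2.30. Sox2 was at 0.06 and -1.32, a difference of -1.39. Klf4 was at 0.01 and -1.34, a difference of -1.34, and the counting interval of its untreated ratio (-0.04 to 0.05) includes 0, so its sign there is not settled. These differences are made of the same 4 counts as the further differences of the triptolide ratios given above and add nothing independent of them.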

How the results depend on the processing

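No paired analysis was possible because each group has 1 library. Of 156 values recomputed under the alternatives, 94 stayed within their counting interval (for counts and percents, within 1.5 times) and 62 moved. The 94 include all 24 values from unrounded counts and all 24 pair ratios taken from TPM, which could hardly move by construction. The 94 therefore overstate how stable the other values were. Of ratios of 2-fold or more, 0 changed sign, but the scalings moved ratios by far less than 2-fold, so none of these could. Smaller ratios were outside this rule, and that of Pou5f1 at 6 h did change sign in TPM. All ratios of Nanog, Sox2 and Klf4 with triptolide against without stayed past 2-fold under each scaling tried. The ratios of single genes that moved, in log2, come first. With TMM factors the 3 h ratio of Pou5f1 was 0.15, and the 6 h ratios were 0.44 (Pou5f1), -3.96 (Nanog), -3.40 (Sox2) and -2.55 (Klf4); treated 6 h against 3 h gave 0.38, -1.78, -1.14 and -1.15 in that order. With DESeq2 size factors the 3 h ratio of Pou5f1 was 0.16, and the 6 h ratios were 0.45, -3.94, -3.39 and -2.54; treated 6 h against 3 h gave 0.39, -1.77, -1.13 and -1.14. With log2(TPM + 0.1) the 3 h ratios were 0.0236, -1.97, -2.32 and -1.51, the 6 h ratios -0.0739, -4.46, -3.90 and -3.05, and treated 6 h against 3 h gave 0.0134, -2.14, -1.50 and -1.52. With log2(TPM + 1) the 3 h ratios were 0.0236 (Pou5f1), -1.96 (Nanog) and -1.49 (Klf4), the 6 h ratios -0.0738, -4.40, -3.82 and -2.98, and treated 6 h against 3 h gave 0.0134 (Pou5f1), -2.10 (Nanog) and -1.47 (Klf4). The differences of the 6 h and 3 h triptolide ratios, in the order Pou5f1, Nanog, Sox2 and Klf4, were 0.28, -2.12, -1.21 and -1.17 with TMM factors, 0.29, -2.11, -1.20 and -1.16 with size factors, and -0.0975, -2.49, -1.58 and -1.54 with log2(TPM + 0.1); with log2(TPM + 1) those that moved were -0.0974 (Pou5f1), -2.45 (Nanog) and -1.49 (Klf4). A 4-fold limit left 1 of the 4 genes lower at 3 h, Sox2. The percent of all tested transcripts lower at 3 h was 3.66 with log2(TPM + 1), 18.1 at 1.5-fold, 1.48 at 4-fold, 12.9 with no filter and 4.24 with the CPM minimum raised to 5, and at 6 h it was 8.38 at 4-fold. TMM and size factors hold 1 factor per library and so shift all 6 h ratios alike by construction, here up by 0.22 and 0.23. In TPM the 6 h ratio of Nanog was lower by 0.29. Depth did not limit the 4 transcripts, whose smallest count was 573 reads.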
